A study of Mus musculus with 8 samples.

Results

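The 10 genes described here are the CDK inhibitors Cdkn1a, Cdkn1b, Cdkn1c, Cdkn2a, Cdkn2b and Cdkn2c, the pocket protein genes Rb1, Rbl1 and Rbl2, and Trp53, the gene of the p53 transcription factor. They were taken by name, whatever their values, from tables of 23699 gene rows, and each had 1 row. Their RNA was compared between mouse 3T3-L1 preadipocytes, a fibroblast-like line that can turn into fat cells, that received siRNA against Fto (siFto, n = 4 libraries) and the same cells with control siRNA (siCtr, n = 4 libraries). Fto encodes an enzyme that removes methyl groups from adenosine in RNA. Each group received a mix of 3 Stealth siRNAs at 40 nM with a Lipofectamine reagent, 24 h before confluence, and total RNA was taken 2 days after confluence from cells in DMEM with newborn calf serum. No library came from untransfected cells, and the effects of single siRNAs of a mix cannot be told apart.

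Cell division in mammals is held at the G1/S boundary by pocket proteins, which bind E2F transcription factors and keep S-phase genes silent. Cyclin D with CDK4 or CDK6, and then cyclin E with CDK2, phosphorylate the pocket proteins and release E2F. INK4 proteins (among them those of Cdkn2a, Cdkn2b and Cdkn2c) bind CDK4 and CDK6. Cip/Kip proteins (Cdkn1a, Cdkn1b, Cdkn1c) bind cyclin-CDK complexes more broadly, and p53 switches on Cdkn1a. Confluent 3T3-L1 preadipocytes are arrested by contact, re-enter the cycle after hormonal induction, and leave it again as they become adipocytes, a sequence in which p27, p18, p21 and the exchange of p130 for p107 have all been studied.

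The siFto libraries matched their label, with 13.8, 10.7, 12.3 and 11.6 FPKM of Fto in siFto replicates 1 to 4, against 54.6, 55.4, 56.2 and 55.2 FPKM in siCtr replicates 1 to 4 (log2 fold change -2.15, SE 0.063, limma adjusted p = 7.3e-08). FPKM is a level of RNA scaled for transcript length and for sequencing depth. Every log2 fold change given here is siFto minus siCtr on the log2(FPKM + 0.5) scale, which understates changes of low genes, and a gene is called where its Benjamini-Hochberg adjusted p over 11398 tested genes is under 0.05. FPKM summed to between 456022 and 473898 in siFto libraries and between 454737 and 484842 in siCtr libraries, and relative depth ran from 0.88 to 1.13. siCtr replicate 3 stood furthest from its group, with median pairwise differences of 1.44 to 1.75 standard errors, against 0.93 to 1.03 among the other controls. All 10 preadipocyte and fibroblast markers were at 1 FPKM or more, with sums of 8365 to 9279.6 FPKM in siFto and 7819 to 8231 FPKM in siCtr libraries. Of these 10, 4 were called higher and 2 lower, beside 6.97% and 12.3% of all tested genes. Such a sum weighs most the markers of highest FPKM. Of the mature adipocyte markers 3 of 8 were at 1 FPKM or more (sums of 54.2 to 65.9 and 51.6 to 83.3 FPKM in siFto and siCtr libraries, none called), with Plin1, Lep, Retn, Cfd and Slc2a4 under 1. Of 6 leukocyte markers, Cd68 alone reached 1 FPKM (sums of 1.82 to 2.50 FPKM in siFto and 1.43 to 1.89 FPKM in siCtr libraries), and Emr1 and Cd3e were among those at 0. Endothelial markers summed to 0.379 to 0.571 FPKM in siFto and 0.347 to 0.478 FPKM in siCtr libraries, and epithelial markers to 0.0689 to 0.157 FPKM in siFto and 0.0243 to 0.152 FPKM in siCtr libraries, with Epcam and Krt18 at 0. The preadipocyte marker calls went both ways, and their part in the results below was not tested.

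Cdkn1a was higher and Cdkn2c lower in siFto cells, and the other 7 tested genes passed no threshold. Of the 9 tested genes 1 was called higher, where 6.97% of all tested genes were, and 1 lower, where 12.3% were. With median-ratio scaling the calls over all genes split into 1086 higher and 1218 lower, and with quantile normalization into 1086 and 1207, instead of 794 and 1401. That is 47.1% and 47.4% of the calls higher in place of 36.2%. The median log2 fold change was -0.06 over the 9 genes and -0.02 over all tested genes, and 6 of the 9 were below 0, as were 55.3% of all. The highest and lowest libraries of the groups did not overlap for Cdkn1a, which was higher in every siFto library (9.08% of all tested genes), nor for Cdkn1b, Cdkn2c, Rbl1 and Rbl2, which were lower in every siFto library (15.1% of all). The gap between the groups was 24.5 FPKM for Cdkn1a, 0.713 for Rbl2, 0.324 for Cdkn2c, 0.154 for Cdkn1b and 0.00127 for Rbl1, and all but that of Cdkn1a are narrower than the Cufflinks interval of a single library to either side. In these bulk samples, fewer cells of a kind and less RNA per cell cannot be told apart.

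**Figure D1:**
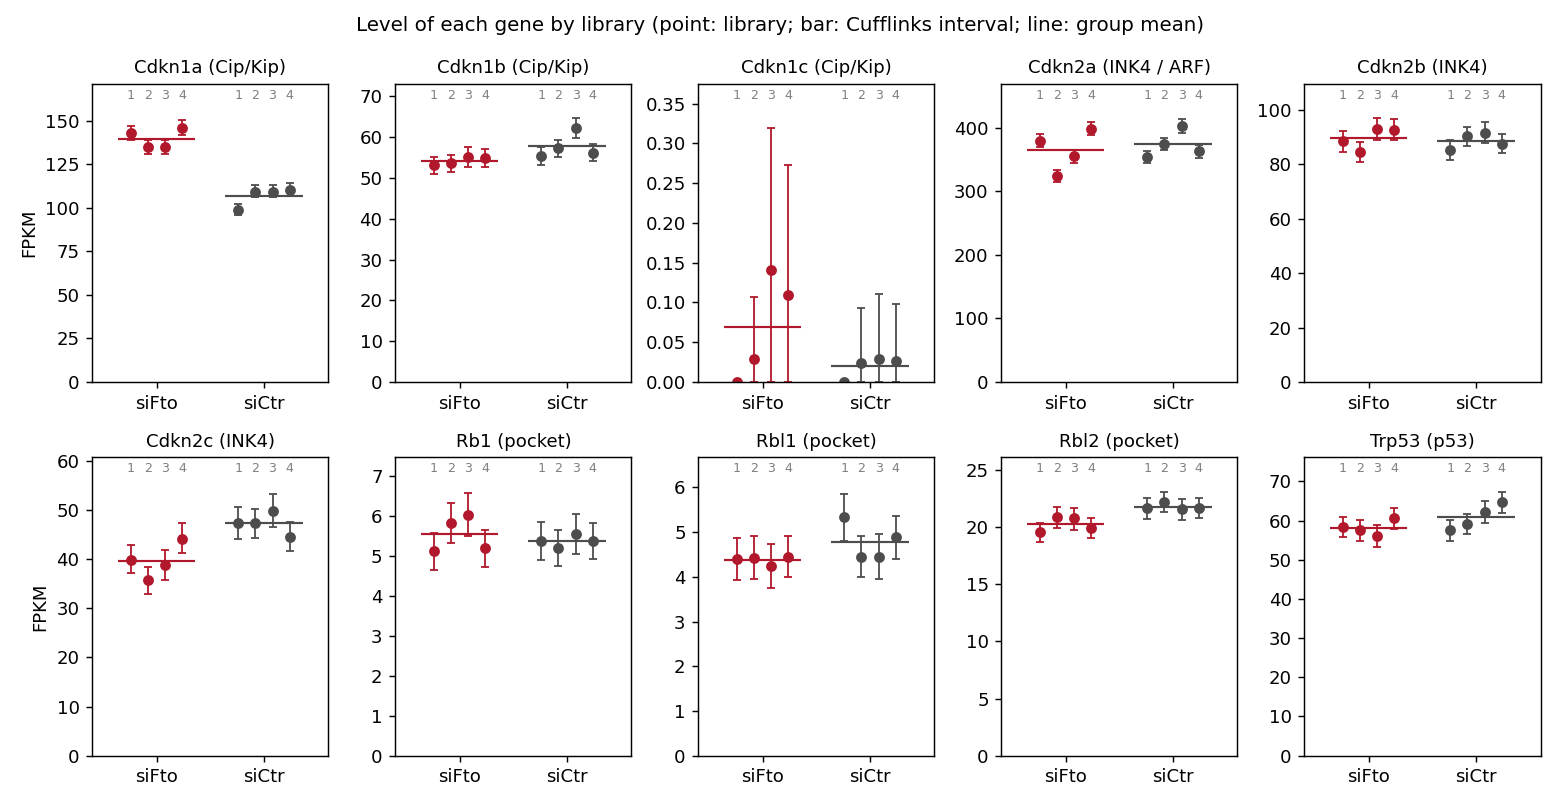
FPKM of each of the 10 genes in the 4 siFto and 4 siCtr libraries, with points numbered by replicate, Cufflinks 95% intervals as bars and group means as lines, each panel on its own axis from 0. The siFto libraries of Cdkn1a sit between 135 and 146 FPKM, above the siCtr libraries at 99.0 to 110.4 FPKM, while the Cdkn1c panel spans less than 1 FPKM.

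**Figure D2:**
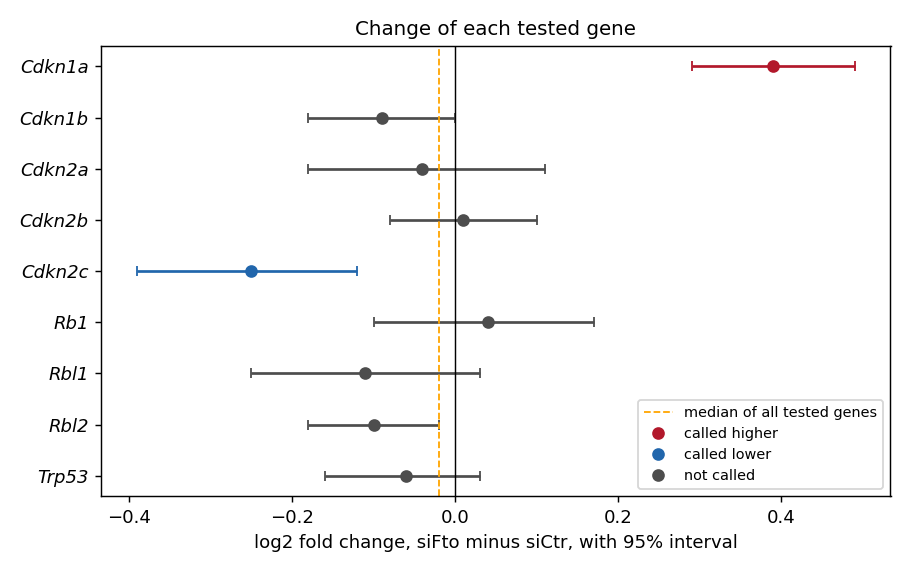
Log2 fold change (siFto minus siCtr) of the 9 tested genes with 95% intervals, coloured by call, with the median of all tested genes as a dashed line. The interval of Cdkn1a (0.29 to 0.49) lies above 0 and that of Cdkn2c (-0.39 to -0.12) below it.

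Of the Cip/Kip inhibitors, Cdkn1a was called higher, Cdkn1b was not called, and Cdkn1c was at or near 0. Cdkn1a encodes p21, which binds and inhibits cyclin-CDK2 complexes and is a classical p53 target. Its row (mm9 chr17:29227931-29237667) joins 2 annotated start sites, so RNA from the 2 starts cannot be told apart. The rise therefore cannot be placed at either start. Its promoter windows of RefSeq (GRCm38.p6, 250 bases before to 50 after a start) are shown because this gene rose and they differ in the motifs found. Capitals mark a p53 site in the upstream window (chr17:29090729-29091028, plus strand) and GC boxes in the downstream window (chr17:29093519-29093818, plus strand).
Cdkn1a upstream start: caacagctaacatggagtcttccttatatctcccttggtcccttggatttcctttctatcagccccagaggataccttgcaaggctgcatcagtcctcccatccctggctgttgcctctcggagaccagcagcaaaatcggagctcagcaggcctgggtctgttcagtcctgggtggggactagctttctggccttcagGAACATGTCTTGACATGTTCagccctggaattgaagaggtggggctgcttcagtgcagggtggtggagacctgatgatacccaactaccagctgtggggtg
Cdkn1a downstream start: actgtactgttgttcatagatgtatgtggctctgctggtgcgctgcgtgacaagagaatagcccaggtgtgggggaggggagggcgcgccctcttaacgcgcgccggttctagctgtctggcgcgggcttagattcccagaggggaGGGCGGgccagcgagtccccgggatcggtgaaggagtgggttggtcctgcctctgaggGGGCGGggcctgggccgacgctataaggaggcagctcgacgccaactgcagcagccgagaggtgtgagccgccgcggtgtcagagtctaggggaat
The p53 site was searched by name, on both strands, as its 20 letters with at most 1 off, and the Cdkn1a match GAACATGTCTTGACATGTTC begins 51 bases before the start. Such a match was in 29 of 32851 windows of the table (0.0883%). The GC box, searched as GGGCGG on both strands and overlapping no match of another motif here, was in 35.7% of windows. Of the 7 tested genes with a p53 match, 2 were called, both higher, beside 6.97% of all tested genes called higher. They were Calhm2 and Cdkn1a itself. As the windows of Cdkn1a are shown because that gene rose, its call is not independent of the choice. The count therefore cannot be weighed against that share. A match is a description of letters, and binding was not measured.

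Cdkn1a had 143, 135, 135 and 146 FPKM in siFto replicates 1 to 4, against 99.0, 109, 109 and 110.4 FPKM in siCtr replicates 1 to 4. Every siFto library was above every siCtr library, and siCtr replicate 1 was the lowest of its group. The means were 140.0 ± 5.70 FPKM in siFto and 107 ± 5.42 FPKM in siCtr (SD, n = 4 each), a rise of 30.7%, with a log2 fold change of 0.39 (SE 0.045, 95% interval 0.29 to 0.49, limma adjusted p = 4.3e-04). The call held in each of 16 alternatives, with 0.40 without siCtr replicate 3 (limma adjusted p = 7.3e-04) and 0.35 without siCtr replicate 1 (limma adjusted p = 8.7e-04). Its Cufflinks intervals were 2.73 to 3.38% of the value to either side, and 2.14% of the 50-base words of its transcripts occur in other genes' transcripts.

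Cdkn1b encodes p27, the Cip/Kip inhibitor best known from contact-inhibited and serum-starved cells. Its row (mm9 chr6:134870419-134875543) had 53.1, 53.6, 55.2 and 54.96 FPKM in siFto replicates 1 to 4, against 55.3, 57.3, 62.2 and 56.1 FPKM in siCtr replicates 1 to 4. The siFto libraries were all just under the lowest control, and siCtr replicate 3 was the highest. The means were 54.2 ± 1.01 FPKM in siFto and 57.7 ± 3.10 FPKM in siCtr, and the log2 fold change of -0.09 (SE 0.041, 95% interval -0.18 to 0.00) did not pass (limma adjusted p = 0.158). Without siCtr replicate 3 it was -0.05 (limma adjusted p = 0.261).

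A 3′ UTR word is shown for Cdkn1b because, of the 10 genes, Cdkn1b alone held either of a pair of 7-letter words, GACCTTA and ACCTTAA, which were picked from genes lower in these same libraries. The word stands at base 207 of a 3′ UTR of 3439 bases (chromosome 6, gene strand, GENCODE M21 transcript) and is in capitals.
Cdkn1b 3′ UTR word: caagatatttACCTTAAagtggaatca
Either word was held by 27.9% of genes called lower, 9.04% of genes called higher and 12.2% of genes not called. Because the words were picked from genes lower in these libraries, these shares are no independent contrast. Cdkn2c, which was called lower, held neither, and the part of these words in any gene's level was not tested.

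Cdkn1c encodes p57, an imprinted inhibitor of the same family. It was at or near 0 (mm9 chr7:150644244-150646955), with 0, 0.0282, 0.141 and 0.109 FPKM in siFto replicates 1 to 4, against 0, 0.0244, 0.0291 and 0.0257 FPKM in siCtr replicates 1 to 4. The lower bound of the Cufflinks interval was 0 in all 8 libraries. The values above 0 are worth 0.512 to 2.55 fragments each, so no difference was detectable at this depth (two-sided exact permutation test, p = 0.286). It is the member that missed the filter of a mean of 1 FPKM and was not fitted.

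Within a library, Cdkn1a was 2.70, 2.53, 2.45 and 2.66 times as high as Cdkn1b in FPKM in siFto replicates 1 to 4, against 1.79, 1.91, 1.76 and 1.97 times in siCtr replicates 1 to 4. The ratio averaged 2.58 ± 0.117 in siFto and 1.86 ± 0.0992 in siCtr libraries. The Cip/Kip genes together came to 194 ± 5.75 FPKM in siFto and 165 ± 7.42 FPKM in siCtr libraries (SD, n = 4 each), of which Cdkn1a was the larger share in both groups.

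Among the INK4 inhibitors, Cdkn2c was lower in siFto cells while its relatives Cdkn2a and Cdkn2b passed no threshold. Cdkn2d, an INK4 gene outside the members and named after its values were seen, was not called in either of its rows. Those rows had log2 fold changes of 0.07 (limma adjusted p = 0.624) and 0.05 (limma adjusted p = 0.713). Cdkn2c encodes p18, an inhibitor of CDK4 and CDK6 (mm9 chr4:109333481-109337977). RefSeq gives it 2 promoter windows, and the upstream window (GRCm38.p6 chr4:109666707-109667006, minus strand) is shown because this gene fell and the window holds 4 GC boxes, in capitals. The downstream window held none of the motifs searched. The measured row has 1 annotated start site, and which of the 2 windows it matches was not determined. A GC box was in 35.7% of all windows, and how often a window holds 4 was not counted. Binding was not measured, and the part of these letters in the fall was not tested.
Cdkn2c upstream start: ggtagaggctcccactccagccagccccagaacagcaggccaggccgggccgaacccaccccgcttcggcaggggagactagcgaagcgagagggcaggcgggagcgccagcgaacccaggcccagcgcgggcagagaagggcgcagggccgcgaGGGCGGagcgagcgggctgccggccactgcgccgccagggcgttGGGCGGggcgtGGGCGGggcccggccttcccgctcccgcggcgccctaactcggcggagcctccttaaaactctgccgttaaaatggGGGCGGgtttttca
Cdkn2c had 39.9, 35.7, 38.9 and 44.2 FPKM in siFto replicates 1 to 4, against 47.4, 47.3, 49.9 and 44.6 FPKM in siCtr replicates 1 to 4. siFto replicate 4 came close to siCtr replicate 4, and the other siFto libraries were clearly under all controls. The means were 39.7 ± 3.52 FPKM in siFto and 47.3 ± 2.19 FPKM in siCtr (SD, n = 4 each), a fall of 16.1% in the mean, with a log2 fold change of -0.25 (SE 0.061, 95% interval -0.39 to -0.12, limma adjusted p = 0.0165). It was called in each of 16 alternatives, with -0.23 without siCtr replicate 3 (limma adjusted p = 0.0317) and -0.31 without siFto replicate 4 (limma adjusted p = 0.00549). Its Cufflinks intervals were 6.24 to 7.82% of the value to either side.

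Cdkn2a, which makes both p16Ink4a and p19Arf, was the highest of the 10 genes. Its row (mm9 chr4:88920377-88940523) joins 2 start sites, so the transcripts of p16Ink4a and p19Arf cannot be told apart. It had 379.6, 324, 355 and 398 FPKM in siFto replicates 1 to 4, against 354, 374, 403 and 363 FPKM in siCtr replicates 1 to 4. The groups overlapped throughout, with siFto replicate 2 the lowest library. The log2 fold change was -0.04 (SE 0.065, 95% interval -0.18 to 0.11, limma adjusted p = 0.727), and its sign turned with quantile normalization (0.01) and without siFto replicate 2 (0.02).

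Cdkn2b encodes p15, an INK4 inhibitor induced by TGF-beta, next to Cdkn2a on chromosome 4 (mm9 chr4:88952198-88956941). It had 88.4, 84.4, 93.0 and 92.8 FPKM in siFto replicates 1 to 4, against 85.4, 90.4, 91.6 and 87.6 FPKM in siCtr replicates 1 to 4. The groups overlapped, and the log2 fold change was 0.01 (SE 0.041, 95% interval -0.08 to 0.10, limma adjusted p = 0.844). The sign of so small a value turned without siFto replicate 3, siFto replicate 4 or siCtr replicate 1 (each -0.00).

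Cdkn2c made up 7.86, 8.03, 7.99 and 8.26% of the summed FPKM of Cdkn2a, Cdkn2b and Cdkn2c in siFto replicates 1 to 4. In siCtr replicates 1 to 4 it made up 9.74, 9.25, 9.17 and 9.00%. Cdkn2d is not in that sum. The groups did not overlap in the Cdkn2c share. In the replicates 4, Cdkn2c itself lay close (44.2 FPKM in siFto, 44.6 FPKM in siCtr), and their shares differ mostly through the other genes. Cdkn2a had 398 FPKM in siFto and 363 FPKM in siCtr replicate 4, and Cdkn2b 92.8 and 87.6 FPKM. The Cdkn2a row also holds p19Arf, which is not an INK4 protein. How often such a share splits the groups for other genes was not tested. Cdkn2a made up 73.8 ± 0.9503% in siFto and 73.3 ± 0.542% in siCtr libraries. The sum itself was 494 ± 38.4 FPKM in siFto and 509.6 ± 25.7 FPKM in siCtr libraries. Cdk4, the gene of a kinase that these inhibitors bind, was itself lower in siFto cells, and Cdkn2c was 0.191 ± 0.0117 times Cdk4 in siFto and 0.176 ± 0.00819 times in siCtr libraries (SD, n = 4 each).

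**Figure D3:**
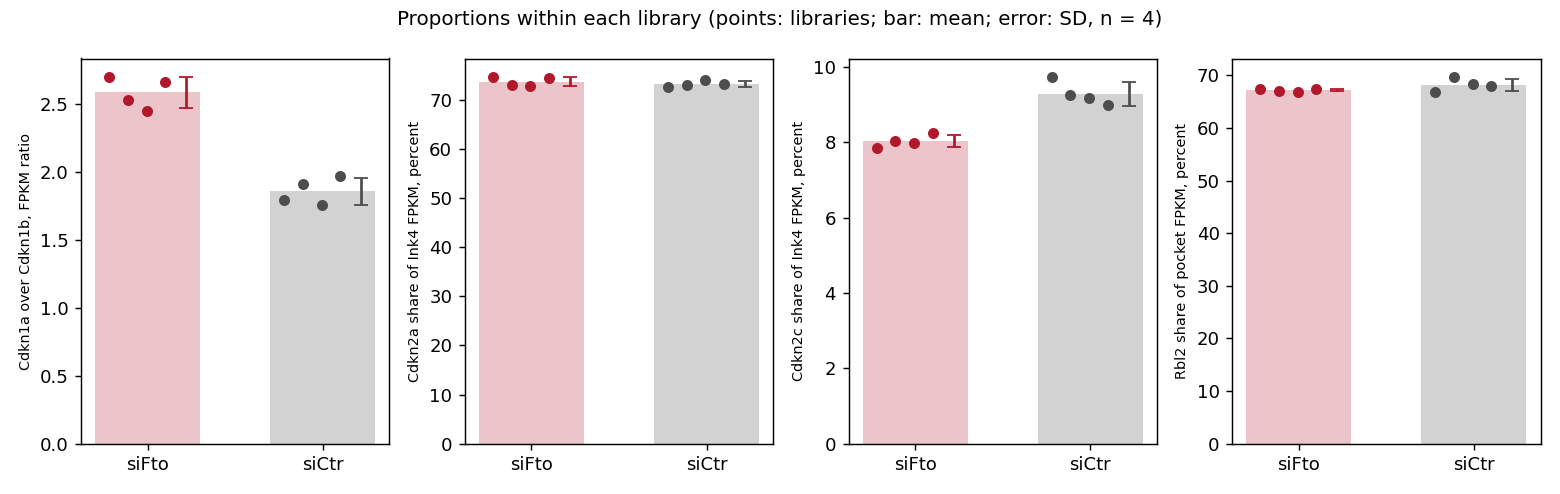
Ratio of Cdkn1a to Cdkn1b, and shares of Cdkn2a and Cdkn2c in the summed FPKM of Cdkn2a, Cdkn2b and Cdkn2c. The last panel is the share of Rbl2 in the summed FPKM of the pocket protein genes. Points are libraries, bars are means and error bars are SD (n = 4 each). The Cdkn1a ratio is 2.45 to 2.70 in siFto and 1.76 to 1.97 in siCtr libraries, and the Cdkn2c share is 7.86 to 8.26% in siFto and 9.00 to 9.74% in siCtr libraries.

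No pocket protein gene was called. Rbl2 encodes p130, the pocket protein that with E2F4 and the MuvB core forms the DREAM repressor of resting cells (mm9 chr8:93593993-93647743). It had 19.6, 20.9, 20.8 and 19.95 FPKM in siFto replicates 1 to 4, against 21.7, 22.2, 21.6 and 21.7 FPKM in siCtr replicates 1 to 4. Every siFto library was under every control, and the mean differed by -6.92%. The log2 fold change was -0.10 (SE 0.035, 95% interval -0.18 to -0.02, limma adjusted p = 0.0665), and over the alternatives the adjusted p ran from 0.0540 to 0.168. Aktip overlaps the Rbl2 locus and had 24.8 ± 0.979 FPKM in siFto and 25.6 ± 0.0902 FPKM in siCtr (limma adjusted p = 0.418), and as no label or header says whether the libraries kept strand, reads of the shared stretch cannot be assigned with certainty.

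Rb1 encodes the retinoblastoma protein (mm9 chr14:73595309-73725598). It had 5.12, 5.83, 6.03 and 5.19 FPKM in siFto replicates 1 to 4, against 5.37, 5.20, 5.55 and 5.37 FPKM in siCtr replicates 1 to 4. The controls lay inside the wider siFto range, and the log2 fold change was 0.04 (SE 0.061, 95% interval -0.10 to 0.17, limma adjusted p = 0.707). Lpar6, a receptor gene within the Rb1 locus, had 6.55 ± 0.404 FPKM in siFto and 7.39 ± 0.586 FPKM in siCtr (limma adjusted p = 0.113, and 0.0421 without siCtr replicate 4), and Mir687 in the same locus was listed at 0 in all libraries.

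Rbl1 encodes p107, the pocket protein of cycling cells, itself an E2F target gene (mm9 chr2:156971630-157030270). Its window (GRCm38.p6 chr2:157204485-157204784, minus strand) is shown because it is the member window with an E2F match. Capitals mark that match, TTTCGCGC, which begins 18 bases before the start, and a GC box read on the opposite strand.
Rbl1: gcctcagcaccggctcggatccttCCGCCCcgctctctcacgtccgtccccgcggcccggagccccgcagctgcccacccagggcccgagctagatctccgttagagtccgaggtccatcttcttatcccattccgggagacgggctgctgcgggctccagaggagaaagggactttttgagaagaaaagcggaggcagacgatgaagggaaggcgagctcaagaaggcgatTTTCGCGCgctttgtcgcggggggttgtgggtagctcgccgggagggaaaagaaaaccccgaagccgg
The E2F motif was searched as TTTCGCGC or TTTGGCGC on both strands and was in 0.813% of windows. A Foxo motif, GTAAACA, was in 3.65% of windows and in none of the windows of these genes. The Trp53 window held no match to any motif searched. RefSeq windows were matched for 8 of the 10 genes, and none was matched for Rb1 and Cdkn1c.

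Rbl1 had 4.39, 4.43, 4.24 and 4.45 FPKM in siFto replicates 1 to 4, against 5.33, 4.45, 4.45 and 4.88 FPKM in siCtr replicates 1 to 4. siCtr replicates 2 and 3 were level with the siFto libraries, and siCtr replicate 1 was the highest. The log2 fold change was -0.11 (SE 0.064, 95% interval -0.25 to 0.03, limma adjusted p = 0.254) and -0.06 without siCtr replicate 1 (limma adjusted p = 0.518). The 3 pocket protein genes summed to 30.2 ± 1.03 FPKM in siFto and 31.9 ± 0.322 FPKM in siCtr libraries (SD, n = 4 each). Rbl2 held 67.2 ± 0.231% of that sum in siFto and 68.2 ± 1.17% in siCtr libraries, so p130 was the main pocket protein transcript in both groups.

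Trp53 was not called (mm9 chr11:69393861-69405375). It had 58.4, 57.5, 56.1 and 60.6 FPKM in siFto replicates 1 to 4, against 57.5, 59.1, 62.3 and 64.7 FPKM in siCtr replicates 1 to 4. The groups overlapped, and the log2 fold change was -0.06 (SE 0.043, 95% interval -0.16 to 0.03, limma adjusted p = 0.332). Its transcripts share 3.88% of their 50-base words with other genes, among them the processed pseudogene Trp53-ps, so its level is slightly uncertain. p53 is controlled mainly as a protein, which was not measured.

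Over the 8 libraries the levels ran in the order Cdkn2a (369 FPKM), Cdkn1a (124), Cdkn2b (89.2), Trp53 (59.5), Cdkn1b (56.0), Cdkn2c (43.5), Rbl2 (21.0), Rb1 (5.46), Rbl1 (4.58) and Cdkn1c (0.0448). Neighbours in that order did not overlap among the siFto libraries. Among the siCtr libraries, Trp53 overlapped Cdkn1b and Rb1 overlapped Rbl1. Cdkn2a lay above 98.7% of all tested genes and Cdkn1a above 94.6%, whereas Rb1 and Rbl1 lay above 21.1% and 17.7%.

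Among genes that p53 is known to switch on, Cdkn1a was not alone in rising, but most of the others were not called. Of 23 other tested p53 targets 7 were called higher, 1 lower and 15 not, beside 6.97% called higher and 12.3% lower over all tested genes. Their median log2 fold change was 0.09 against -0.02 over all. Bbc3 (0.28, limma adjusted p = 0.0512), Ccng1 (0.03, 0.562) and Ddb2 (-0.19, 0.107) were among those not called, and were named after their values were seen. Mdm2, which p53 also switches on, was not called either, but is counted with the regulators below and not here. Gadd45a, a stress gene that acts in growth arrest and repair, had 22.1 ± 1.04 FPKM in siFto and 16.6 ± 1.15 FPKM in siCtr (log2 fold change 0.40, SE 0.054, limma adjusted p = 8.8e-04). Tnfrsf10b, a death receptor, had 17.95 ± 0.538 FPKM in siFto and 14.6 ± 0.608 FPKM in siCtr (0.29, limma adjusted p = 0.00113). Trp53inp1, a p53 cofactor, had 44.0 ± 2.92 FPKM in siFto and 36.4 ± 1.47 FPKM in siCtr (0.27, limma adjusted p = 0.00539). Aen, an apoptosis-linked nuclease, had 24.6 ± 1.02 FPKM in siFto and 21.4 ± 0.222 FPKM in siCtr (0.20, limma adjusted p = 0.00568). Btg2, an antiproliferative gene named after its values were seen, was the target called lower, with 12.2 ± 0.655 FPKM in siFto and 14.1 ± 0.632 FPKM in siCtr (-0.21, limma adjusted p = 0.0160). Several of these targets also respond to other stress pathways, and the lists were drawn up with earlier results of these libraries known.

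Of 18 regulators of p53, 1 was called, and it was lower, beside 12.3% of all tested genes called lower, with a median of -0.02 as over all. Atm, the kinase that activates p53 after DNA breaks, had 4.70 ± 0.420 FPKM in siFto and 6.19 ± 0.645 FPKM in siCtr (log2 fold change -0.36, limma adjusted p = 0.0138). Wrap53, which lies 1035 bases from Trp53 and encodes a telomerase cofactor, had 4.18 ± 0.316 FPKM in siFto and 5.04 ± 0.607 FPKM in siCtr (-0.24, limma adjusted p = 0.0689). Mdm2 encodes the ubiquitin ligase of p53, is itself switched on by p53, and was named after its values were seen. It was not called (0.10, limma adjusted p = 0.132) and stood at 1732 ± 51.3 FPKM in siFto and 1619 ± 20.9 FPKM in siCtr. That level is above those of all 10 genes described here.

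Of the 15 cyclins and kinases of G1 and S phase, 2 were called higher and 1 lower, beside 6.97% and 12.3% of all tested genes, with a median log2 fold change of -0.00. Cdk4, the partner of D cyclins, fell to 208 ± 11.05 FPKM in siFto, against 269 ± 13.4 FPKM in siCtr (log2 fold change -0.37, SE 0.049, limma adjusted p = 7.4e-04). Ccnd1, cyclin D1, had 157 ± 1.97 FPKM in siFto and 139 ± 3.09 FPKM in siCtr (0.17, limma adjusted p = 0.00373). Ccne1, cyclin E1, had 8.93 ± 0.900 FPKM in siFto and 7.29 ± 0.482 FPKM in siCtr (0.27, limma adjusted p = 0.0244) and was not called without siFto replicate 2 or siCtr replicate 2 (adjusted p up to 0.0643). Among 5 rows of other inhibitors, 1 was called higher (6.97% of all tested genes), that of Pkmyt1, an inhibitory CDK1 kinase (0.26, limma adjusted p = 0.0400). Its call was lost in 9 of 15 alternatives, among them leaving out any library except siCtr replicate 3. Cdkn3, a CDK phosphatase, had 0.14 (limma adjusted p = 0.541).

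Of 9 tested E2F and DP genes, 1 was called, and it was higher, beside 6.97% of all tested genes called higher, with a median log2 fold change of 0.03 against -0.02 over all. Tfdp1, the E2F partner DP1, was the gene called higher, with 52.6 ± 0.817 FPKM in siFto and 47.7 ± 0.616 FPKM in siCtr (log2 fold change 0.14, limma adjusted p = 0.00836). E2f5, a repressor E2F that binds p130, had -0.20 (limma adjusted p = 0.0690, and 0.0286 without siCtr replicate 4). Of the 8 MuvB core genes and partners limma called 0 in either direction (1 had an unadjusted p under 0.05), beside 6.97% and 12.3% of all tested genes. Foxm1, a factor of G2 genes, had -0.13 (limma adjusted p = 0.112, and 0.0390 without siCtr replicate 3), and Lin9 had 0.08 (limma adjusted p = 0.397). Of 15 chromatin partners 1 was called, and it was lower, beside 12.3% of all tested genes called lower. Hdac3, a histone deacetylase, was that gene, with 44.9 ± 1.89 FPKM in siFto and 55.1 ± 2.27 FPKM in siCtr (-0.29, limma adjusted p = 0.00123). Sin3b had 0.13 (limma adjusted p = 0.0657) and was called with median-ratio scaling and with quantile normalization.

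Of 24 S-phase targets of E2F, 2 were called higher and 1 lower, beside 6.97% and 12.3% of all tested genes, with a median log2 fold change of 0.05 against -0.02 over all. Rrm2, a ribonucleotide reductase subunit, had 20.6 ± 1.83 FPKM in siFto and 16.9 ± 0.849 FPKM in siCtr (0.28, limma adjusted p = 0.0117). Its partner subunit Rrm1 (0.10, limma adjusted p = 0.0391) and thymidylate synthase Tyms (-0.26, limma adjusted p = 0.0430) were each called in 6 of 16 alternatives. Leaving out any library ended the Rrm1 call, and leaving out any library except siFto replicate 1 or siCtr replicate 2 ended that of Tyms, with adjusted p up to 0.111.

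**Figure D4:**
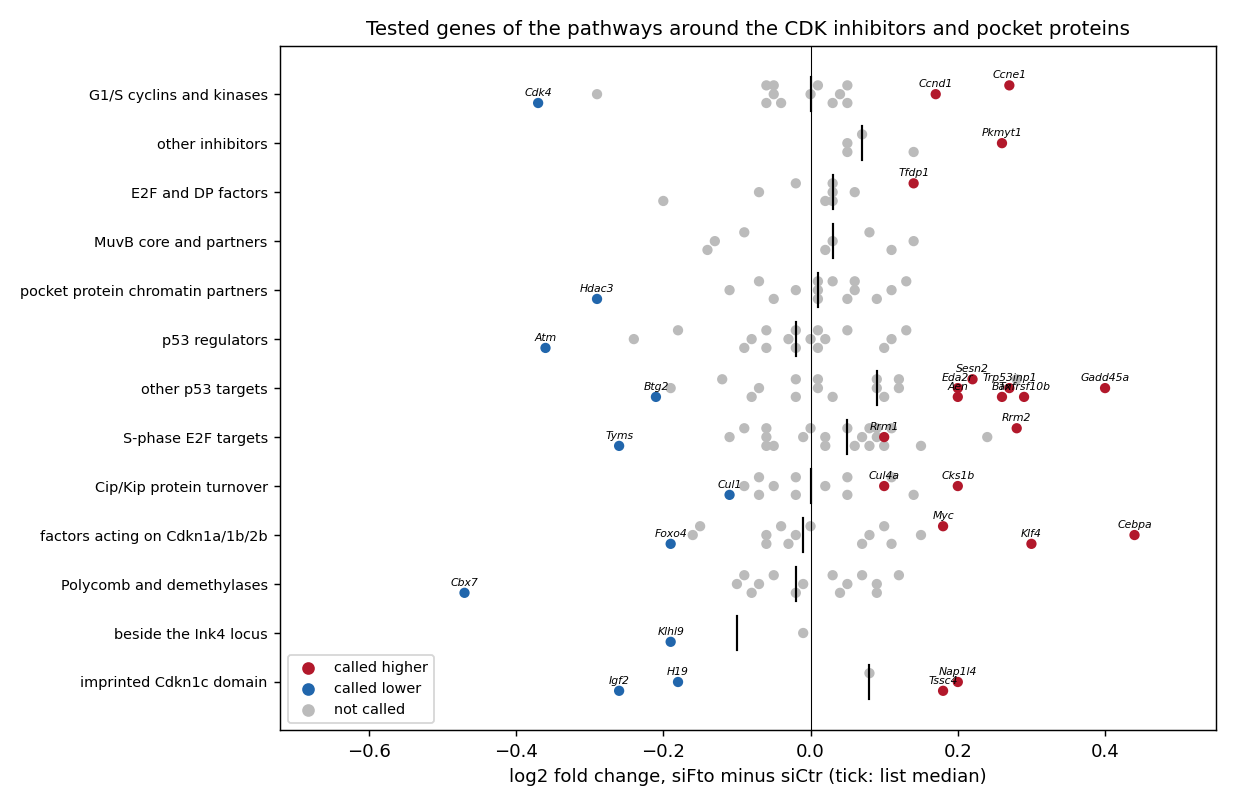
Log2 fold change (siFto minus siCtr) of tested genes in 13 lists of the pathways around the CDK inhibitors and pocket proteins, with called genes in colour and named, and a tick at each list median. Not every tested gene is drawn. The list labelled imprinted Cdkn1c domain also holds Igf2 and H19, which belong to a separate imprinted domain of that cluster. Other p53 targets hold 7 genes called higher and 1 called lower, while the MuvB list holds none.

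Among 14 genes of Cip/Kip protein turnover 2 were called higher and 1 lower, beside 6.97% and 12.3% of all tested genes, with a median log2 fold change of 0.00. Cul1, the scaffold of the SCF ligase that degrades p27, had -0.11 (limma adjusted p = 0.0347), Cks1b, its cofactor, 0.20 (0.0471) and Cul4a 0.10 (0.0472). These calls were lost in 11, 9 and 12 of 16 alternatives. Leaving out any library ended that of Cul4a, leaving out any except siCtr replicate 3 that of Cul1, and leaving out any except siFto replicate 3 or siCtr replicate 3 that of Cks1b.

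Of 18 tested transcription factors that act on Cdkn1a, Cdkn1b or Cdkn2b, 3 were called higher and 2 lower, beside 6.97% and 12.3% of all tested genes, with a median log2 fold change of -0.01. Klf4, known to bind and raise Cdkn1a, had 34.1 ± 1.15 FPKM in siFto and 27.8 ± 2.22 FPKM in siCtr (log2 fold change 0.30, limma adjusted p = 0.00510). Myc, a repressor of Cdkn1a and Cdkn2b, had 16.3 ± 0.0975 FPKM in siFto and 14.3 ± 0.768 FPKM in siCtr (0.18, limma adjusted p = 0.0147). Cebpa, an adipogenic factor that stabilizes p21, had 11.5 ± 0.994 FPKM in siFto and 8.45 ± 1.47 FPKM in siCtr (0.44, limma adjusted p = 0.0190, and 0.0538 without siFto replicate 4). Foxo4, named after its values were seen, had 12.8 ± 0.798 FPKM in siFto and 14.6 ± 0.584 FPKM in siCtr (-0.19, limma adjusted p = 0.0269).

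Of 16 Polycomb genes and demethylases that act on the Ink4 locus, 1 was called, and it was lower, beside 12.3% of all tested genes called lower, with a median log2 fold change of -0.02. Cbx7, a Polycomb repressor of Cdkn2a, had 0.905 ± 0.206 FPKM in siFto and 1.44 ± 0.175 FPKM in siCtr (log2 fold change -0.47, limma adjusted p = 0.0263), and the call ended without siFto replicate 2 or 4 or siCtr replicate 1, 2 or 3 (adjusted p up to 0.0640). The siFto mean of Cbx7 is under the filter of 1 FPKM, so this gene was tested only through its higher siCtr values. Around the Ink4 locus, Mtap, 93383 bases from Cdkn2a, had -0.01 (limma adjusted p = 0.846, its sign turning with median-ratio scaling and without siFto replicate 1) and Klhl9 -0.19 (limma adjusted p = 0.00982). Of 5 tested genes of the imprinted gene cluster around Cdkn1c, Nap1l4 (0.20, limma adjusted p = 0.00399) and Tssc4 (0.18, 0.0120) were called higher. Igf2 (-0.26, limma adjusted p = 0.0147) and H19 (-0.18, 0.0262), of a separate imprinted domain in that cluster, were called lower. Of all tested genes, 6.97% were called higher and 12.3% lower. The H19 call ended without siFto replicate 1 or 3 or siCtr replicate 1 (adjusted p up to 0.0685).

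Among the nearest tested neighbours of each gene, Gm16197, 12025 bases from Cdkn1a, was called higher like Cdkn1a, with 3.58 ± 0.140 FPKM in siFto and 2.53 ± 0.242 FPKM in siCtr (limma adjusted p = 0.00331). On its other side Ppil1, 150113 bases away, had 25.98 ± 1.08 FPKM in siFto and 27.8 ± 1.23 FPKM in siCtr (limma adjusted p = 0.159). Beside Cdkn2c, Rnf11 at 184371 bases was called lower, with 55.4 ± 2.32 FPKM in siFto and 61.3 ± 1.70 FPKM in siCtr (limma adjusted p = 0.0262). Faf1 at 11255 bases had 12.2 ± 0.472 FPKM in siFto and 13.3 ± 0.243 FPKM in siCtr (limma adjusted p = 0.0685). Samhd1, a dNTP hydrolase 10672 bases from Rbl1, was called lower, with 28.3 ± 0.647 FPKM in siFto and 32.2 ± 1.24 FPKM in siCtr (limma adjusted p = 0.00828). Gpr19, 22476 bases from Cdkn1b, was called lower, with 3.30 ± 0.0963 FPKM in siFto and 4.08 ± 0.487 FPKM in siCtr (limma adjusted p = 0.0388). The Rnf11 call ended without siFto replicate 1, 2 or 3 or siCtr replicate 1 or 2, and the Gpr19 call without any library except siCtr replicate 1, with adjusted p up to 0.0896. Most neighbours that were not called are left out of this paragraph, so the calls named here are no share of all neighbours. Over all tested genes, 6.97% were called higher and 12.3% lower.

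The genes whose centred log2 values lay nearest to those of Cdkn1a over the 8 libraries were Nfe2l1, a stress-response factor of the proteasome genes (Euclidean distance 0.123), Col15a1, a collagen (0.138), and Gpr64, an adhesion receptor (0.142), where the median tested gene was at 0.632. Nfe2l1 had 119 ± 3.65 FPKM in siFto and 93.8 ± 3.31 FPKM in siCtr libraries. For Cdkn2c they were 2810428I15Rik (0.0873), Hist3h2a, a histone (0.112), and Nr1d1, a circadian repressor (0.115), with a median of 0.470. 2810428I15Rik had 83.6 ± 6.27 FPKM in siFto and 97.7 ± 5.23 FPKM in siCtr libraries, and it was not called without siFto replicate 2 or 3 (adjusted p up to 0.0539). All 8 points of each gene share their libraries, and the distances describe likeness only.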

How the data were processed

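The 8 libraries of total RNA were 4 siFto and 4 siCtr, per the labels. Per the submitters' processing notes, TopHat2 2.0.11 did the alignment to mm9 and Cufflinks 2.2.1 the quantification. Per the file headers, the authors deposited FPKM per gene with 95% interval bounds and a status, which was OK for all 10 genes in all 8 libraries. FPKM holds no counts, since it is scaled by transcript length and depth, and Cufflinks shares reads among similar or overlapping transcripts. Intervals cover counting error only. No label or header says whether the libraries kept strand. No label says either that replicates were separate cultures, so the p-values reflect the spread between these samples, which may be technical.

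Of 23699 genes, 11398 had a mean of at least 1 FPKM over the 8 libraries. Their log2(FPKM + 0.5) was fitted with limma 3.58.1 in R 4.3.3, using the trended prior. Tests were two-sided and p-values were adjusted over the 11398 genes by Benjamini-Hochberg, with a threshold of 0.05. The script was tested on simulated data. Cdkn1c, below the filter, was compared with an exact permutation test, whose smallest p here is 0.0286. Alternatives were pseudocounts of 0.1 and 1, no filter and a filter of 5 FPKM, median-ratio scaling, quantile normalization, no trend, a replicate block, and leaving out each library. Named genes were the 10 members, Fto, up to 4 called genes of lowest p per list (the lowest 2 tested where fewer than 2 were called), overlapping and nearest tested genes, and the 3 nearest patterns of each called member. Neighbours described with values, apart from single flagged libraries, are those called, those on both sides of Cdkn1a and Cdkn2c, and those overlapping Rb1 and Rbl2. Wrap53 beside Trp53 and Mtap beside Cdkn2a are described as well. Members and lists were chosen with earlier results of these data known. Promoter windows are from RefSeq (GRCm38.p6), and 3′ UTR words were searched in GENCODE M21 transcripts. Results for a few genes that this rule or the lists would name are not reported here.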

Additional observations from a re-analysis of the deposited data

Results flagged for a closer look

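Of 138 groups of 4 libraries, 12 had a library far from the other 3, where chance alone gives about 1 in 20 groups. Among the 10 genes, Cdkn1a was low in siCtr replicate 1 (99.0 FPKM, others 109 to 110.4), and its log2 fold change was 0.35 without that library. Cdkn1c was 0 in siCtr replicate 1 (others 0.0244 to 0.0291 FPKM), and Rbl2 was high in siCtr replicate 2 (22.2 FPKM, others 21.6 to 21.7). The Cdkn1c values above 0 are worth 0.512 to 2.55 fragments each over both groups, so its flag rests on very few fragments.

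In siFto libraries, Rpn2 was high in replicate 4 (175 FPKM, others 165), Rrm1 high in replicate 2 (39.1 FPKM, others 38.0 to 38.2) and Trpm5 low in replicate 4 (1.596 FPKM, others 2.07 to 2.13). In siCtr replicate 3, 2810428I15Rik (105 FPKM, others 94.0 to 95.9), Hist3h2a (12.7, others 11.6 to 11.7) and Tusc1 (7.05, others 5.20 to 5.46) were high and Atm was low (5.23, others 6.41 to 6.60). E2f5 was low in siCtr replicate 4 (10.7 FPKM, others 12.4 to 12.5), and Sin3b was low in siCtr replicate 1 (103 FPKM, others 114 to 116).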

How the results depend on the processing

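Over 16 alternatives, Cdkn1a kept its call with log2 fold changes of 0.35 to 0.41 and Cdkn2c with -0.31 to -0.20, and none of the other 7 tested genes was called. The sign of Cdkn2a turned with quantile normalization (0.010) and without siFto replicate 2 (0.016), that of Cdkn2b without siFto replicate 3 (-0.004), siFto replicate 4 (-0.003) or siCtr replicate 1 (-0.004), and that of Mtap with median-ratio scaling (0.008) and without siFto replicate 1 (0.009). With a library left out, the log2 fold change ran from -0.083 to 0.016 for Cdkn2a, from -0.004 to 0.043 for Cdkn2b and from -0.024 to 0.009 for Mtap. Calls lower over the 13 lists numbered 12, and 7 to 13 with a library left out, with the 7 without siCtr replicate 1. Of 1078 recomputed values for 68 genes, 965 kept direction and side of the threshold, 97 lost the call, 9 gained it and 7 turned, and the cause was not tested. Libraries with the same replicate number did not deviate together (correlations of 0.0736, -0.0402, -0.19 and -0.0895). Pairing by number was thus not seen, but 4 libraries per group are too few to exclude it. With the replicate block, 628 genes were called higher and 1133 lower, and Cdkn1a (limma adjusted p = 0.00304) and Cdkn2c (limma adjusted p = 0.0375) were called, while Cks1b, Cul1, Cul4a, Gpr19, H19, Pkmyt1, Rnf11 and Rrm1 were not and Wrap53 was. Rbl1, Pkmyt1, Cdkn3, Lin9, Wrap53, Cbx7, Gpr19, Gm16197, 1190002F15Rik and Trpm5 have no value at the filter of 5 FPKM. Cdkn1c, at under 3 fragments a library, is beyond what this depth can compare.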
